A study of Homo sapiens with 8 samples.

Results

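The 9 genes described here encode the core of MHC class I antigen presentation. They are the heavy chains HLA-B, HLA-C and HLA-E, the light chain B2M, the peptide transporter subunits TAP1 and TAP2, the immunoproteasome subunits PSMB8 and PSMB9, and the transcriptional activator NLRC5. The rule lists them by name, the choice was made with earlier results of these data known, and they are 9 of 19881 protein-coding genes in the annotation. For each gene, the window was the whole gene record plus 2 kb upstream in GRCh37, and the length covered by H3K27me3 and H3K4me3 islands and the width of the H3K4me3 island at the gene start were set side by side for GSK126 and DMSO in each replicate.

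The cells were PC9, a line derived from a human lung adenocarcinoma, and they were kept for 5 days with either DMSO or the EZH2 inhibitor GSK126 at 1 μM, in medium with 5% FBS. Histone marks were mapped by ChIP-seq in 8 libraries, 2 for each mark and treatment, with D. melanogaster chromatin and an antibody to its H2Av histone variant added to each reaction as a spike-in. The authors deposited 14 lists of islands, stretches of 200-bp windows in which tags were more frequent than over a random background. For the standard lists the human tags of the libraries in a replicate were reduced at random to equal number, and for the spike-in lists tags were removed with the factor given by the D. melanogaster tags. All cells were of 1 line, and the study describes its ChIP-seq replicates as biological, although the labels do not tie a library to a culture.

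In MHC class I presentation, cytosolic proteins are cut by the proteasome, in which PSMB8 and PSMB9 replace constitutive catalytic subunits in cells exposed to interferon. TAP1 and TAP2 form the transporter that carries the peptides into the endoplasmic reticulum, where they are loaded onto a heavy chain paired with B2M. NLRC5 raises transcription of many of these genes at their promoters. EZH2 is the catalytic subunit of Polycomb repressive complex 2, which deposits H3K27me3, a mark of silenced genes, whereas H3K4me3 marks active or poised promoters.

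The genes lay on 3 chromosomes. B2M was on chromosome 15 (45003556 to 45011049, plus strand), and NLRC5 was on chromosome 16 (57023397 to 57117443, plus strand). On chromosome 6, HLA-E (30457286 to 30461971, plus strand), HLA-C (31236526 to 31239907, minus strand) and HLA-B (31321649 to 31334844, minus strand) lay apart, with the starts of HLA-C and HLA-B 85.1 kb from each other. TAP2, PSMB8, TAP1 and PSMB9 were packed into 38.0 kb (32789610 to 32827628). The starts of TAP1 on the minus strand and PSMB9 on the plus strand were 488 bp apart and pointed away from each other, and 1 H3K4me3 island covered both, so the 9 genes had 8 separate promoter islands.

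The 200 bases before the start are shown for the 7 genes with an entry in the promoter table, because H3K27me3 separates them: islands covered all of these bases with DMSO at HLA-B and HLA-C and 0 of 200 in every H3K27me3 list at the other 5. Capitals mark matches, searched on both strands, to an NF-kappaB-type and an IRF-type motif, and neighbouring matches may overlap. Both classes of factor are known activators of class I genes. The sequences were taken from the RefSeq promoter table of GRCh38.p14 and placed by their single exact match in GRCh37, which succeeded for the 7 of 9 genes that the table lists. The sequences run from HLA-B (chr6:31324957-31325156, minus strand) and HLA-C (chr6:31239870-31240069, minus strand) to B2M (chr15:45003515-45003714, plus strand), TAP1 (chr6:32821482-32821681, minus strand), PSMB9 (chr6:32821769-32821968, plus strand), TAP2 (chr6:32806517-32806716, minus strand) and PSMB8 (chr6:32811825-32812024, minus strand), each written 5′ to 3′ along its gene.
HLA-B: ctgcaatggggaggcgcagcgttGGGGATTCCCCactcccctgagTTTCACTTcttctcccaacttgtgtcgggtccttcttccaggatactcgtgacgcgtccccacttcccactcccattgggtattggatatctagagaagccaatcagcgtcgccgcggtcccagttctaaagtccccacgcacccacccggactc
HLA-C: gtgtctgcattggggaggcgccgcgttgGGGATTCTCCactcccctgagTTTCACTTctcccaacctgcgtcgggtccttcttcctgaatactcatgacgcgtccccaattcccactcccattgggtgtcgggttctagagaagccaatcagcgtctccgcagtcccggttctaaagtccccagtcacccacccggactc
B2M: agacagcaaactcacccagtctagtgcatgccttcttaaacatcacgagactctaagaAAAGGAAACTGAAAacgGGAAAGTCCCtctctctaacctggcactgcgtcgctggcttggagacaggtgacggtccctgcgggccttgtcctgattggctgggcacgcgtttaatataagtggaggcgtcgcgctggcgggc
TAP1: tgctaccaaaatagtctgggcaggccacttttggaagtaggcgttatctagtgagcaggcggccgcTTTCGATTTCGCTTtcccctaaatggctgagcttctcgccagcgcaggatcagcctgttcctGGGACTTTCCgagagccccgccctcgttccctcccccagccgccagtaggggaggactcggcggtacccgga
PSMB9: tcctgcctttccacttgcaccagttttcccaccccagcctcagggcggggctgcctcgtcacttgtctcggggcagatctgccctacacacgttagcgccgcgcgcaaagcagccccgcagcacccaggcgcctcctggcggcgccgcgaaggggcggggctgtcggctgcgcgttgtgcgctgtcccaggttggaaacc
TAP2: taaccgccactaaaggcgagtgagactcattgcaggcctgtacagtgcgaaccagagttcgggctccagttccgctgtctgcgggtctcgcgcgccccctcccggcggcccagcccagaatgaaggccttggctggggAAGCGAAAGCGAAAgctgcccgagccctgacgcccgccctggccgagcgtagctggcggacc
PSMB8: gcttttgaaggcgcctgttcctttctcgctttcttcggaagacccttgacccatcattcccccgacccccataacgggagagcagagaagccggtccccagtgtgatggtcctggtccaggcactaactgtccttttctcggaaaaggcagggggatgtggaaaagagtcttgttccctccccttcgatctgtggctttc

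Within the 250 bases before the start in the RefSeq promoters, 4 of the 7 genes had an NF-kappaB-type match, against 19.3% of 27305 promoters. The 7 genes used the entry nearest to their annotated start, and all promoters the first listed entry of each gene, over the same length. All promoters were not limited to protein-coding genes, whereas the 7 genes are all protein-coding. HLA-B and HLA-C, which are close paralogues, were counted separately. The IRF-type motif matched in 5 of 7, against 20.6% of all promoters. The HLA-B and HLA-C promoters carried the pair at nearly the same place. In HLA-B the NF-kappaB-type matches were GGGGATTCCC and, shifted by 1 base, GGGATTCCCC, together spanning bases 177 to 167 before the start. In HLA-C the match was GGGATTCTCC at bases 172 to 163. Both genes had the IRF-type match TTTCACTT, at bases 155 to 148 in HLA-B and 151 to 144 in HLA-C. In B2M the order along the gene was reversed, with 2 overlapping IRF-type matches (AAAGGAAA and AACTGAAA) from base 142 to 129 ahead of the NF-kappaB-type match GGAAAGTCCC at 125 to 116. TAP1 had 2 overlapping IRF-type matches (TTTCGATT and TTTCGCTT) from base 134 to 121 and the NF-kappaB-type match GGGACTTTCC at 72 to 63. TAP2 had the IRF-type match AAGCGAAA 2 times, overlapping, from base 62 to 49. PSMB8 had no match to any of the motifs searched, and PSMB9 none to these 2. A CCAAT box (CCAAT) was found in 5 of 7 promoters against 33.0% of all, a GC box (GGGCGG) in 4 of 7 against 42.3%, and a CRE-type motif (TGACG) in 5 of 7 against 21.7%. The observed-to-expected ratio of CpG in the 250 bases upstream was between 0.548 in PSMB8 and 0.880 in TAP2, with a median of 0.556 over all promoters. These matches are letters in a window and say nothing about binding in PC9 cells.

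The lists differed in how many tags stood behind them, and this bears on every island below. The density of human tags fitted from the scores of the smallest islands was equal between DMSO and GSK126 in the standard lists of a replicate to within 0.000868%. In the H3K27me3 spike-in lists it fell from 1.65 and 2.33 tags per 200-bp window with DMSO to 0.382 and 0.455 with GSK126, which is 23.1% and 19.6% of the DMSO density. The H3K4me3 spike-in lists with GSK126 kept 83.6% and 86.9%, and the second H3K4me3 replicate was shallow throughout (0.302 tags per window with DMSO against 1.77 in the first). As a check of the labelled cell type, 5 of 5 epithelial markers had an H3K4me3 island at their start in every library, against 1 of 5 leukocyte markers (CD14) in 3 libraries and 0 of 5 in the other. With 2 libraries against 2, an exact permutation test cannot go below a 2-sided p of 0.33, and a sign-flip test over 2 pairs cannot go below 0.5, so values, differences and SDs are given without tests.

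The first comparison asked where H3K27me3 lay over the class I genes and whether it was lower with the EZH2 inhibitor. With DMSO, 5 of the 9 genes had an H3K27me3 island in both spike-in lists, namely HLA-B, HLA-C, PSMB9, TAP1 and NLRC5, beside 27.8% of all protein-coding genes. In all 5, GSK126 left less length covered in both replicates of the spike-in lists, as it was for 89.8% of all genes covered with DMSO. No island at all was left in 4 of the 5, beside 32.0% of all genes covered with DMSO, and HLA-B was the gene that kept one. TAP1 and PSMB9 are counted separately although the same island lay over both, at TAP1 only in the 2 kb upstream. The shares over all genes were not matched for island length or score. HLA-E, B2M, TAP2 and PSMB8 had no H3K27me3 island in their windows in any of the lists, DMSO included.

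HLA-B, a classical heavy chain, was the most heavily covered. Its window held 13.4 kb of islands in both DMSO replicates of the spike-in lists, 88.2% of its length, and 8.95 kb and 4.55 kb with GSK126. The difference was −6.64 ± 3.11 kb (SD, n = 2). Most of this loss was away from the main transcript. Over the MANE Select transcript plus 2 kb upstream, a window chosen after the annotation was seen, the difference was −0.38 ± 0.53 kb. The promoter printed above was covered over 200 of its 200 bases in all of the H3K27me3 lists, with either treatment.

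HLA-C, the neighbouring classical heavy chain, was covered over 3.88 kb in each DMSO replicate and over 0 kb in each GSK126 replicate of the spike-in lists. Its island reached from 0.531 kb upstream of the start to 4.47 kb and 4.87 kb downstream, past the end of the gene. It was a low-scoring island, at 59.8 and 100.3 where the lowest scores in those lists were 41.3 and 42.7. With only islands of at least 2 times the lowest score the difference was −1.94 ± 2.74 kb (SD, n = 2). At that score the DMSO island was kept in replicate 2 only. HLA-B and HLA-C are close paralogues, and only uniquely mapped tags were kept, so tags could be lost or divided between them and their levels are uncertain.

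A single H3K27me3 island lay over the body of PSMB9, the interferon-inducible proteasome subunit, and reached into the 2 kb upstream of TAP1. With DMSO it spanned 6.20 kb in replicate 1 (chr6:32822001-32828200) and 4.80 kb in replicate 2 (chr6:32822201-32827000), and it began 0.032 kb and 0.232 kb inside PSMB9. It scored 95.1 and 92.6 in the spike-in lists, above 2 times the lowest score of each. It therefore stopped just short of the PSMB9 promoter printed above, which was covered over 0 of 200 bases. The covered length over PSMB9 was 5.63 kb and 4.80 kb with DMSO and 0 kb in both GSK126 replicates, a difference of −5.21 ± 0.585 kb (SD, n = 2). Over TAP1 it was 1.59 kb and 1.39 kb with DMSO and 0 kb in both with GSK126.

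NLRC5, which encodes the class I transactivator, was covered at its 3′ end and not at its promoter. The island began 86.9 kb and 87.7 kb from the start in the DMSO replicates and covered 5.60 kb and 4.20 kb. With GSK126 the length was 0 kb in both replicates of the spike-in lists, a difference of −4.90 ± 0.990 kb (SD, n = 2). The nearest island upstream of the NLRC5 start ended 15.5 kb and 13.5 kb from it with DMSO. In the GSK126 spike-in lists the nearest one was at 84.5 kb and 85.9 kb, whereas in the GSK126 standard lists it was still at 16.1 kb and 13.1 kb. The island at the 3′ end scored 77.8 and 61.5, under 2 times the lowest score of each list, so a threshold at that score left no NLRC5 island with either treatment.

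**Figure D1:**
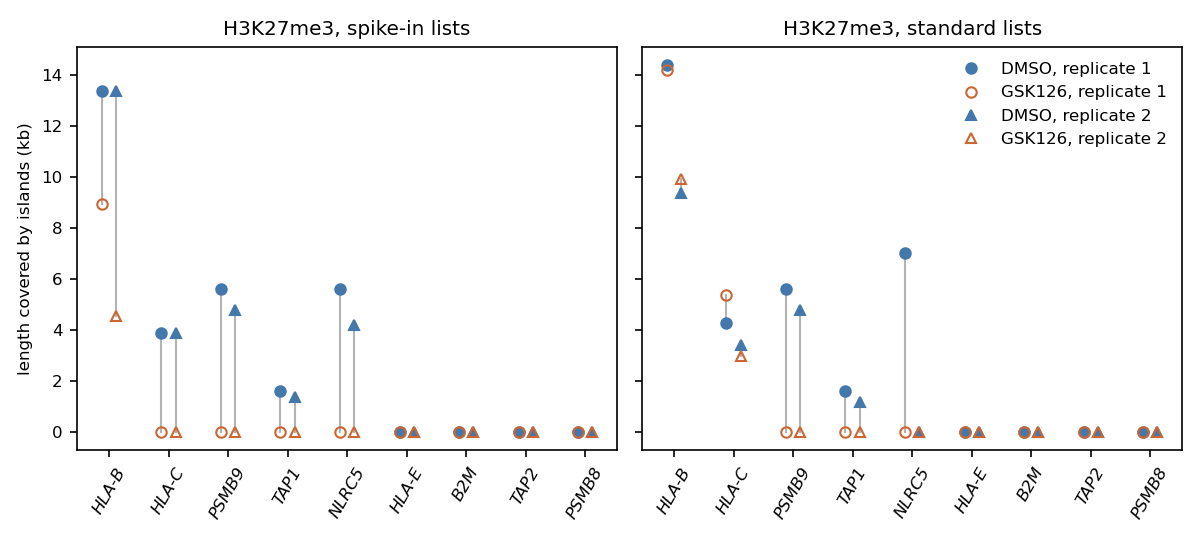
Length covered by H3K27me3 islands (kb) in the window of each gene, for each DMSO library (filled blue) and GSK126 library (open orange) of replicate 1 (circles) and replicate 2 (triangles), with a grey line joining the pair. In the spike-in lists on the left only HLA-B stays above 0 kb with GSK126, and in the standard lists on the right HLA-B and HLA-C stay covered while PSMB9 and TAP1 are at 0 kb in both GSK126 libraries.

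Over the windows of all 9 genes together, with overlaps counted once, the spike-in lists held 28.5 kb and 26.3 kb with DMSO and 8.95 kb and 4.55 kb with GSK126. The difference was −20.6 ± 1.54 kb (SD, n = 2). The standard lists gave 31.3 kb and 17.6 kb with DMSO and 19.6 kb and 13.0 kb with GSK126, a difference of −8.20 ± 5.03 kb. The difference was −11.8 kb in replicate 1 and −4.64 kb in replicate 2, and it rested on low-scoring islands, since it was +0.28 kb when only islands of at least 2 times the lowest score of their list were kept.

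At equal tag number, in the standard lists, the covered genes parted. PSMB9 and TAP1 had no island with GSK126 in either replicate, 2 of the 4 genes covered in both DMSO standard lists, beside 9.06% of all such genes. Their shared island had scored 95.8 and 59.9 with DMSO, where the lowest scores in those lists were 56.7 and 38.2. HLA-C kept its coverage, at 4.28 kb and 3.40 kb with DMSO and 5.38 kb and 3.00 kb with GSK126, and its island score hardly moved, at 81.3 and 44.7 with DMSO and 81.0 and 43.4 with GSK126. The printed HLA-C promoter was covered over 200 of 200 bases in both standard lists with GSK126 and over 0 bases in both spike-in lists with it. NLRC5 was covered over 7.04 kb in 1 DMSO standard list and over 0 kb in the other 3.

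Lists of equal tag number cannot show a change in total H3K27me3, and a score in them follows the share of tags at a locus. The study reports that standard normalization missed the loss of H3K27me3 seen by western blot and mass spectrometry. At HLA-B the island score was higher with GSK126 in the standard lists, while the coverage hardly differed. Its coverage was 14.4 kb and 9.40 kb with DMSO and 14.2 kb and 9.95 kb with GSK126, a difference of 0.18 ± 0.53 kb (SD, n = 2). The score of its strongest island was 270.1 and 395 with DMSO and 707 and 834 with GSK126, 2.62-fold and 2.11-fold higher. In replicate 1 the GSK126 island was 18 kb long and spanned the place of more than 1 DMSO island, of which the strongest was 11.0 kb. The scores of all islands in the window were therefore also summed, which gave 403 and 485 with DMSO and 773 and 908 with GSK126, 1.92-fold and 1.87-fold higher. HLA-B was 1 of the 2 genes with an island in all 4 standard lists, and a higher score in both replicates was seen in 41.9% of all such genes. Among those 4085 genes its log2 ratio of summed scores, 0.94 and 0.90, stood at percentiles 92.4 and 81.6, with all-gene medians of 0.02 and −0.11.

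**Figure D2:**
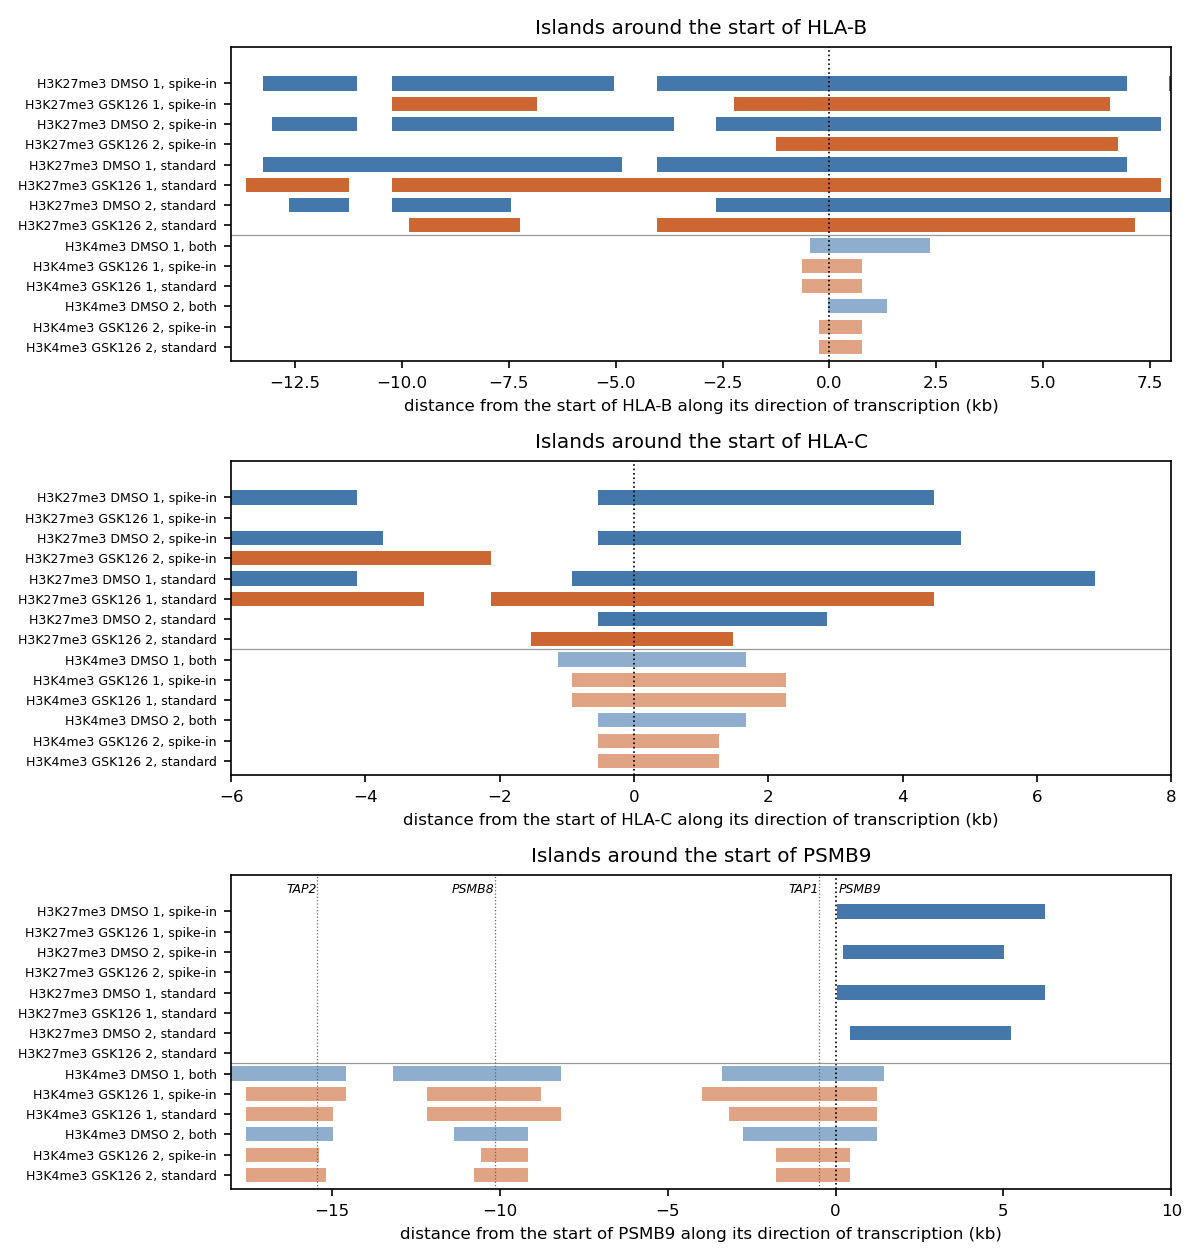
Islands around the starts of HLA-B, HLA-C and PSMB9, drawn by distance from the gene start along its direction of transcription (kb), with 1 row for each list, H3K27me3 above the grey line and H3K4me3 below it, DMSO in blue and GSK126 in orange. The H3K27me3 island over the HLA-B start is present in all 8 rows, the one at HLA-C is absent only from the GSK126 spike-in rows, and the one inside PSMB9 is absent from all 4 GSK126 rows.

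The second comparison asked what the promoters carried and whether H3K4me3 changed. All 9 genes had an H3K4me3 island within 2 kb of the start in both DMSO libraries, beside 63.4% of protein-coding genes. In 4 of the 9 it was overlapped by an H3K27me3 island in both DMSO replicates, beside 8.71% of all genes with such a promoter island. These were HLA-B (over 2.80 kb and 1.40 kb, the whole H3K4me3 island), HLA-C (2.20 kb in both) and the shared island of TAP1 and PSMB9 (1.40 kb and 1.00 kb). Since TAP1 and PSMB9 share it, these 4 genes had 3 separate H3K4me3 islands. Both marks were measured in populations of cells, so whether they lay on the same chromatin was not measured.

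Among the heavy chains, HLA-B had a narrow H3K4me3 island in both DMSO libraries. It was 2800 bp and 1400 bp wide with DMSO, percentiles 14.2 and 12 of all genes with one, where the medians were 4400 bp and 2400 bp. With GSK126 it was 1400 bp and 1000 bp wide in both kinds of list, a log2 ratio of −0.74 ± 0.36 (SD, n = 2). Its downstream edge moved in from 2.36 kb and 1.36 kb past the start to 0.755 kb in both, while its upstream edge moved out, from 0.444 kb and 0.044 kb before the start to 0.644 kb and 0.244 kb. HLA-C measured 2800 bp and 2200 bp with DMSO and 3200 bp and 1800 bp with GSK126, and HLA-E, a non-classical heavy chain, 2600 bp and 1800 bp with DMSO and 2800 bp and 1800 bp with GSK126. With DMSO, HLA-C stood at percentiles 14.2 and 40.2 of all genes and HLA-E at 11.4 and 24.5. Neither of these moved the same way in both replicates.

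The island of B2M, the light chain shared by all class I heavy chains, was narrower with GSK126, at 5200 bp and 2600 bp with DMSO and 4200 bp and 2200 bp with GSK126 in both kinds of list. The log2 ratio was −0.27 ± 0.05 (SD, n = 2). NLRC5 also narrowed in each replicate, from 5200 bp and 2800 bp to 3800 bp and 2600 bp.

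In the cluster of transporter and proteasome genes the widths depended more on the list. The island shared by TAP1 and PSMB9 was 4800 bp and 4000 bp wide with DMSO. With GSK126 it was 4400 bp and 2200 bp in the standard lists but 5200 bp and 2200 bp in the spike-in lists, so its direction in replicate 1 turned with the normalization. TAP2 was narrower in both kinds of list, at 3600 bp and 2600 bp with DMSO against 2600 bp and 2400 bp in the standard and 3000 bp and 2200 bp in the spike-in lists with GSK126. PSMB8 narrowed from 5000 bp and 2200 bp to 4000 bp and 1600 bp in the standard lists and to 3400 bp and 1400 bp in the spike-in lists.

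**Figure D3:**
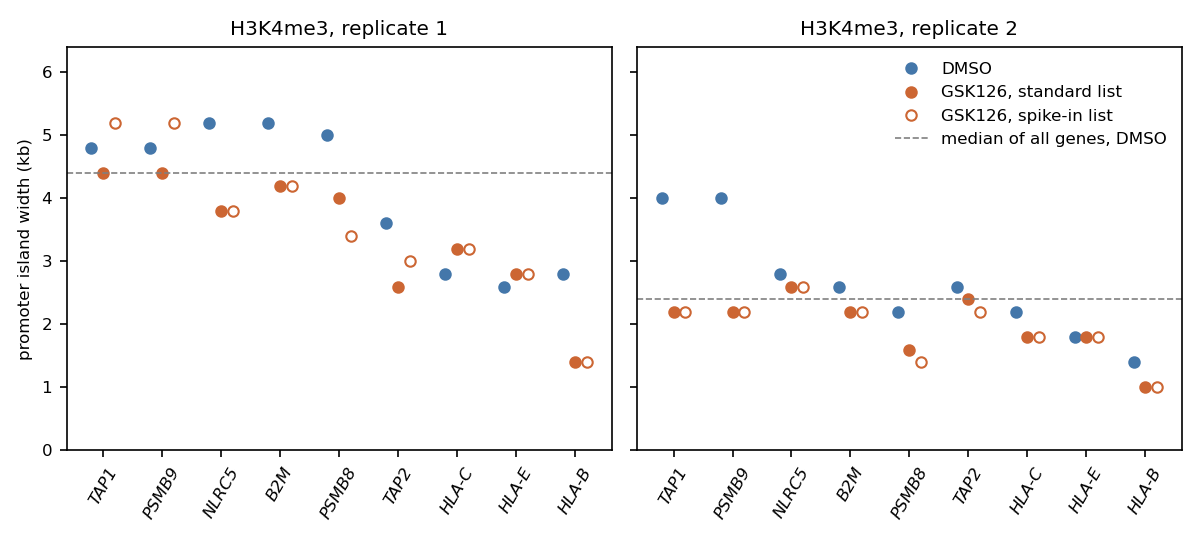
Width (kb) of the H3K4me3 island at the start of each gene in replicate 1 (left) and replicate 2 (right), with DMSO in blue, GSK126 standard lists in filled orange and GSK126 spike-in lists in open orange, and the DMSO median of all genes as a dashed line. HLA-B is the narrowest in every GSK126 list and TAP1 and PSMB9, which share an island, are the widest in replicate 2 with DMSO.

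Counted over the genes, 7 of 9 had a narrower H3K4me3 island with GSK126 in both replicates of the standard lists, beside 34.7% of all genes, and 0 of 9 a wider one, beside 7.26%. In the spike-in lists 5 of 9 were narrower in both, beside 32.2% of all genes, and 0 of 9 wider, beside 8.88%. The 5 were B2M, HLA-B, NLRC5, PSMB8 and TAP2, and TAP1 and PSMB9 count as 2 of the 7 although their island is the same. The median log2 ratio over the 9 genes was −0.31 and −0.29 in the 2 replicates of the standard lists, where the medians of all genes were −0.14 and 0. In the spike-in lists it was −0.26 and −0.29, beside −0.07 and −0.12. The H3K4me3 length covered over all 9 windows went from 33.2 kb and 19.6 kb with DMSO to 26.4 kb and 15.6 kb in the standard and 27 kb and 15.2 kb in the spike-in lists, log2 ratios of −0.33 ± 0.0011 and −0.33 ± 0.05 (SD, n = 2).

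**Figure D4:**
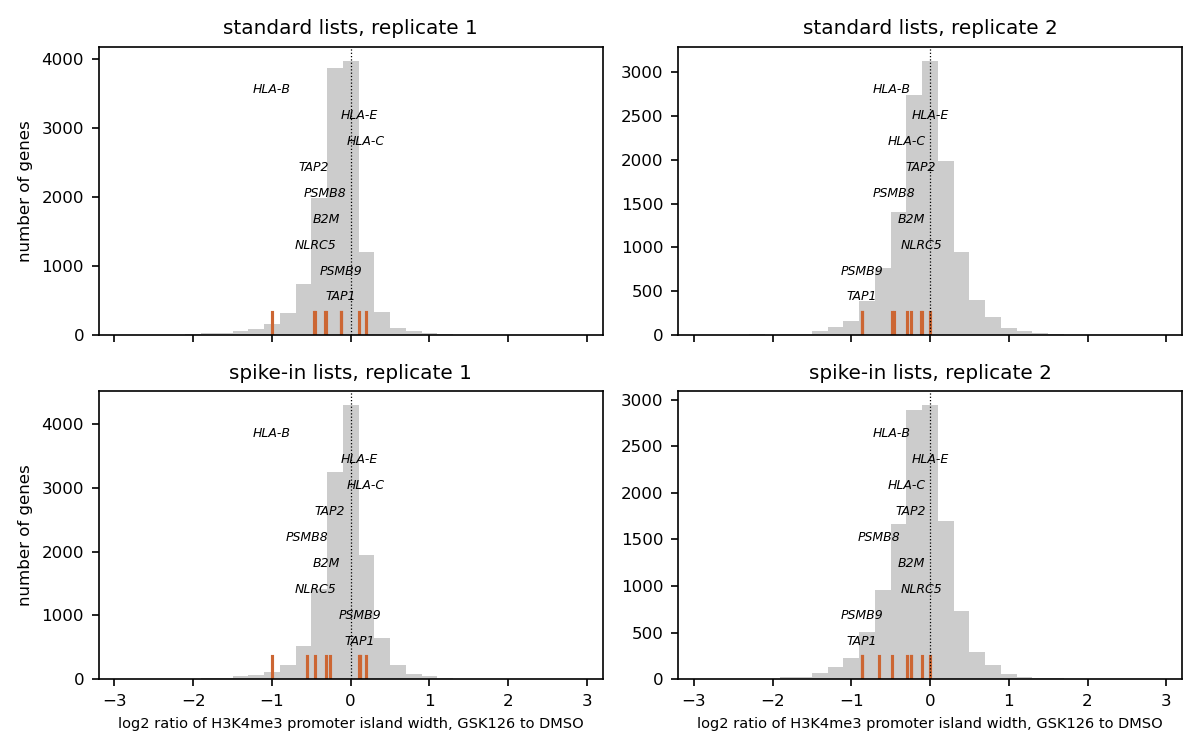
Number of genes (grey bars, bins of 0.2) by log2 ratio of H3K4me3 promoter island width, GSK126 to DMSO, with values past ±3 counted in the end bins, in each replicate of the standard and spike-in lists, with an orange tick and a name for each of the 9 genes. In replicate 1 HLA-B is at −1.0, HLA-C and HLA-E are above 0 in both kinds of list and TAP1 and PSMB9 only in the spike-in lists, and in replicate 2 all of the 9 are at or below 0.

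Island scores did not follow the widths. The score, which sums over the windows of an island how unlikely their tag counts are over a random background, could be compared between treatments in the standard lists, where tag numbers were equal. It was higher with GSK126 in both replicates at 5 of the 9 genes, HLA-B, HLA-E, NLRC5, PSMB8 and TAP2, beside 28.7% of all genes, and lower in both at 0 of 9, beside 23.5%. At PSMB8 it was 1573 and 320.0 with DMSO and 2083 and 471 with GSK126. At NLRC5 it was 1627 and 281 with DMSO and 1882 and 422 with GSK126. Among the genes of higher score, PSMB8, NLRC5, TAP2 and HLA-B were also narrower in both replicates. This combination, counted after the values were seen, was found in 4 of 9 and in 7.44% of all genes.

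For the remaining genes the scores were closer or turned between replicates. TAP2 had 1534 and 459 with DMSO and 1719 and 615 with GSK126, and HLA-E 1743 and 474 with DMSO and 1958 and 598 with GSK126. HLA-B had the lowest scores of the 9, at 341 and 70.7 with DMSO and 354 and 81.0 with GSK126. B2M rose in replicate 1 from 3038 to 3554 and was lower in replicate 2, at 774 with DMSO and 669 with GSK126. The shared island of TAP1 and PSMB9 scored 3539 and 704 with DMSO and 3618 and 692 with GSK126, and HLA-C 1061 and 360 with DMSO and 1069 and 337 with GSK126. The median log2 ratio of the scores over the 9 genes was 0.16 and 0.20, beside 0.08 and −0.08 over all genes.

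**Figure D5:**
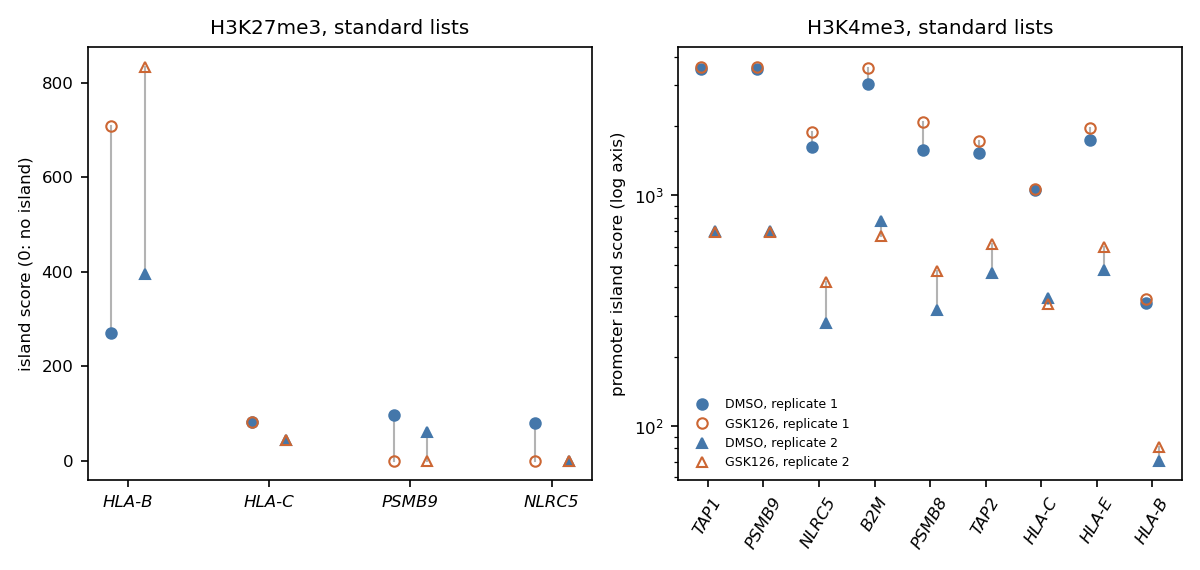
Island scores in the standard lists, where the libraries of a replicate have equal tag numbers, for H3K27me3 (left, highest-scoring island of the window, 0 where there is none, linear axis) and H3K4me3 at the gene start (right, log axis), with DMSO filled blue, GSK126 open orange, replicate 1 as circles and replicate 2 as triangles. The H3K27me3 score of HLA-B is higher with GSK126 in both replicates and that of PSMB9 goes to no island, while the H3K4me3 scores of the 9 genes stay within the range of 70.7 to 3618.

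Other genes of the class I pathway were mostly free of H3K27me3. Of 19 such genes, among them the loading chaperones TAPBP and CALR, the trimming peptidases ERAP1 and ERAP2, and the regulators IRF1 and RFX5, 2 had an H3K27me3 island in both DMSO spike-in lists, HLA-F and MICA. The share over all protein-coding genes was 27.8%. An H3K4me3 island was at the start of 18 of the 19 in both DMSO libraries, beside 63.4% of all genes. HLA-G was the one without. The island was narrower with GSK126 in both replicates of the standard lists in 5 of 18, beside 34.7% of all genes. In the spike-in lists it was narrower in 4 of 18, beside 32.2%. The score was higher in both replicates in 5 of 18, beside 28.7%, and lower in 3 of 18, beside 23.5%. None of the 18 was narrower with a higher score, beside 7.44% of all genes.

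The MHC class II genes, which lie on chromosome 6 but for CD74 and CIITA, carried the marks in another arrangement. H3K27me3 islands were present in both DMSO spike-in lists in 11 of 12, all but HLA-DOB, beside 27.8% of all genes. An H3K4me3 island was at the start in both DMSO libraries in 1 of 12, CIITA, beside 63.4% of all genes. In the spike-in lists 10 of the 11 were covered over less length in both GSK126 replicates, beside 89.8% of all genes covered with DMSO. No island was left in 6 of the 11, beside 32.0% of all genes covered with DMSO. In the standard lists, 1 of 8 class II genes covered in both DMSO libraries, HLA-DQA1, had no island with GSK126 in either replicate. The share of all such genes was 9.06%. Among the class I genes it was 2 of 4, PSMB9 and TAP1, which share 1 island. That island scored under 2 times the lowest score of each DMSO standard list. No test was run on these differences between gene groups.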

How the data were processed

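Per the labels and the methods of the study, 50-nt single-end tags were aligned with BWA to hg19 (GRCh37), handled with SAMtools 0.1.18, cleared of duplicates and kept where uniquely mapped (mapping quality above 25). The authors removed tags at random and called islands for each library with SICER (200-bp windows, E-value 1, and a gap of 600 bp for the broad H3K27me3 mark or 200 bp for H3K4me3). Each deposited list gives islands and a score, in which the −ln Poisson probabilities of its windows are added up and which depends on tag number. Scores were compared only between standard lists of a replicate. The lists hold no tag counts, so no count model was used.

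The 9 genes, the comparison lists and the measures were chosen with earlier results of these data known. All 9 genes are named, and of the other lists only genes behind a count or given as examples. In the list of other class I pathway genes, 1 gene is not reported here and is not in the counts. Gene records and starts came from GENCODE v44lift37. The covered length used the gene record plus 2 kb upstream. The promoter island was the widest H3K4me3 island within 2 kb of the MANE Select start. That start was chosen after the annotation was seen, because the records of HLA-B and PSMB9 begin far upstream of it. GSK126 was set against DMSO within a replicate. Replicate numbers follow accession order, and the pairing follows the study, in which tags were removed within replicates. The 1 H3K4me3 DMSO list of a replicate served both normalizations.

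Scripts used Python 3.11.15, NumPy 2.4.6, SciPy 1.17.1 and Matplotlib 3.10.9, and were tested on simulated islands with known answers. Alternatives covered the island threshold, gene window, island length, choice of list, gene start, pairing and leaving out a replicate.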

Additional observations from a re-analysis of the deposited data

How the results depend on the processing

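The H3K27me3 length over the 9 genes in the spike-in lists, −20.6 kb, was −14.7 kb with islands of at least 2 times the lowest score, −17.7 kb against the DMSO standard lists, −14.4 kb with MANE Select transcripts and between −21.7 and −19.5 kb without 1 replicate. In the standard lists, −8.20 kb turned to 0.28 kb with islands of at least 2 times the lowest score, because the islands of PSMB9, TAP1 and NLRC5 were under that score, and it was −11.8 to −4.64 kb without 1 replicate. The log2 ratio of H3K4me3 length, −0.33, was −0.39 over gene bodies in both kinds of list, −0.30 in the standard lists at the higher score, and −0.37 to −0.30 without 1 replicate in the spike-in lists. Without the replicate block, that is without the pairing, the median width ratio was −0.25 in the spike-in and −0.32 in the standard lists. The median score ratio was between 0.16 and 0.20. Of 311 alternatives for single genes, 295 moved by no more than 1 SD, 16 moved further, and 281 kept their sign or stayed at 0. Leaving out 1 of 2 replicates cannot move a value by more than 1 SD. Dropping the pairing leaves the H3K27me3 differences in length as they were. The count of 295 therefore holds alternatives whose outcome was fixed in advance. At the higher score the spike-in losses of PSMB9 and TAP1 were unchanged, at −5.21 and −1.49 kb, and that of NLRC5 was 0 kb. Absence from a list means under the calling threshold and does not show that signal was absent. The GSK126 spike-in lists had the lowest density of tags of the H3K27me3 lists.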

Other observations

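Just outside the windows, HLA-E had an H3K27me3 island upstream that no list lost. It ended 6.49 to 7.29 kb before the HLA-E start in all 8 H3K27me3 lists. At equal tag number, which cannot show a change in total H3K27me3, its score was 126 and 117 with DMSO and 173 and 188 with GSK126. A score higher in both replicates was also seen at HLA-B, and in 41.9% of all genes with an island in all 4 standard lists. B2M lay far from the mark, with its nearest island 92.3 kb downstream in both DMSO spike-in lists and 381 kb downstream in both GSK126 spike-in lists. In the standard lists, it was at 297 kb to 299 kb with either treatment.

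Among the other class I genes, HLA-F, a non-classical heavy chain, had 7.60 kb and 5.65 kb of H3K27me3 with DMSO and 2.80 kb and 0 kb with GSK126 in the spike-in lists. In the standard lists it also had less, at 10.8 kb and 7.40 kb with DMSO and 3.00 kb and 2.20 kb with GSK126. MICA, a stress-induced ligand of the NKG2D receptor, held 10.0 kb and 10.4 kb with DMSO and 2.40 kb and 7.20 kb with GSK126 in the spike-in lists. In the standard lists it was at 9.80 kb and 9.60 kb with DMSO and 10.4 kb and 9.20 kb with GSK126. HLA-DOA, a class II gene, was covered over 7.41 kb in all 8 lists. CIITA, the class II transactivator, held 37.0 kb and 40.2 kb with DMSO and 24.2 kb and 13.0 kb with GSK126 in the spike-in lists. In the standard lists it held 35.8 kb and 33.8 kb with DMSO and 36.2 kb and 25.2 kb with GSK126, less in replicate 2 only.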
